A study of Drosophila melanogaster with 4 samples.

Results

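GAF, the GAGA factor encoded by Trl, was mapped by chromatin immunoprecipitation and sequencing (ChIP-seq) on the X chromosome of late Drosophila melanogaster embryos. The regions described are the enriched clusters of the X chromosome that are below 5000 bp wide and whose midpoint lies at or below 20000000 on FlyBase release 5, which leaves out the end of X next to the centromere. They were chosen from the authors' combined list, by sequence name, midpoint, width and a score above 0, and numbered 1135 of the 6474 enriched clusters of that list (17.5%). The same limits left 1022 of 5694 clusters in ChIP replicate 1 and 989 of 5709 in ChIP replicate 2. All libraries came from wild-type Oregon-R embryos (strain Oregon-R-modENCODE) labelled 14 to 16 hours old. The 4 libraries are 2 GAF ChIP replicates and 2 inputs, and region lists of the ChIP replicates alone were used. The labels pair the inputs crosswise: input 1 is described as the input of ChIP replicate 2's list and input 2 as that of ChIP replicate 1's. The chromatin came from whole embryos fixed with formaldehyde, so all cell types are mixed. The labels give neither the sex of the embryos, on which the number of X copies depends, nor whether the replicates came from separate collections, and any spread between them can be purely technical.

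GAF recognises GA-rich DNA with a zinc finger and joins into larger assemblies through a BTB domain. It sits at promoters, enhancers and Polycomb response elements, where it is known to help keep chromatin accessible and to favour paused RNA polymerase. The X chromosome is of particular interest for a GA-binding protein. In males the dosage compensation complex enters X at GA-rich elements, which are bound by another zinc-finger protein, CLAMP. Whether any cluster described here is such an element was not tested, and no gene or sequence is assigned, because no annotation or genome of release 5 was used.

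X carried 1322 enriched clusters of any width in the combined list, of which 98 were 5000 bp or wider and 89 narrower ones lay beyond the midpoint limit. The limits cut through a continuum. The 2 widest clusters inside the width limit measured 4976 and 4980 bp and scored 1.97 and 2.98, and the 2 narrowest outside it measured 5002 and 5009 bp and scored 2.84 and 1.98. The last cluster inside the midpoint limit ran from 19976921 to 19979023 with a score of 1.01, and the first outside it ran from 20051993 to 20054675 with a score of 3.57. At the score limit, the weakest cluster inside, from 7897196 to 7898882, scored 0.0021 in the combined list and 0.246 in replicate 1, and replicate 2 had no cluster there. The region just outside, from 12664571 to 12666504, had a combined score of -0.00257, although replicate 1 had a cluster with a score of 0.113 there and replicate 2 one with 0.0702. Scores are the authors' values on a scale that no source used here states, and differences are given in score units.

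GAF clusters were spread over the whole of this part of X. The combined list had 56.8 clusters per Mb, replicate 1 had 51.1 and replicate 2 had 49.5, or 50.3 ± 1.17 per Mb over the replicates (SD, n = 2). They covered 13.6% of the 20 Mb in the combined list and 12.4% ± 0.186 in the replicates (SD, n = 2). With the 95 broad clusters that the width limit leaves out, coverage in the combined list was 17.0%. Median widths were close to each other, at 2152 bp in the combined list, 2167 bp in replicate 1 and 2181 bp in replicate 2. The median score was 0.907 in the combined list, 1.15 in replicate 1 and 1.24 in replicate 2.

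Density changed along X from one megabase to the next. In bins of 1 Mb, the combined list ranged from 33 to 77 clusters with a median of 58, replicate 1 from 29 to 66 and replicate 2 from 28 to 60. The SD over the 20 bins was 9.72 clusters in replicate 1 and 8.99 in replicate 2, against a spread of 3.01 clusters between the replicates within a bin (pooled SD, n = 2 per bin). The differences among bins were therefore larger than those between replicates, and both replicates ordered the bins alike, with a Spearman's rho of 0.891 over 20 bins. That value is a description, since both replicates share the genome and its alignable sequence. The replicates differed by at most 10 clusters in a bin, at 15 to 16 Mb, where replicate 1 had 51 and replicate 2 had 41.

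The fullest bin ran from 11000001 to 12000000 and held 77 clusters in the combined list, 65 in replicate 1 and 60 in replicate 2. The bin from 18000001 to 19000000 held 70, 66 and 58 in the same order of lists. From 5000001 to 6000000 there were 68, 62 and 57 clusters, and from 13000001 to 14000000 there were 68, 59 and 58. The order of these 4 bins was not the same in both replicates: replicate 1 had its highest count at 18 to 19 Mb and replicate 2 at 11 to 12 Mb.

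The emptiest bin, from 14000001 to 15000000, lay directly beside one of the fullest. It held 33 clusters in the combined list, 29 in replicate 1 and 28 in replicate 2, the lowest count in each list. Next came the bin from 3000001 to 4000000, with 40 clusters in the combined list and 37 in each replicate, followed by 4000001 to 5000000 with 45, 42 and 39. The bin from 7000001 to 8000000 held 46, 40 and 41, and in replicate 2 the bin at 0 to 1 Mb was lower, at 40. In part of these bins the width limit matters: 7 broad clusters lay at 3 to 4 Mb and 9 at 7 to 8 Mb, against 2 at 14 to 15 Mb. With broad clusters counted, the bin at 14 to 15 Mb still had the lowest number, 35, and the fullest had 79. Other bins changed places. The bin at 1 to 2 Mb, with 12 broad clusters, rose to 77, above 13 to 14 Mb (73), 18 to 19 Mb (71) and 5 to 6 Mb (70). The bin at 7 to 8 Mb rose to 55 and left the 4 emptiest, above 0 to 1 Mb and 15 to 16 Mb (52 each). Neighbouring bins were not alike in number: the Spearman's rho between a bin and the next was -0.156 in the combined list, -0.0292 in replicate 1 and -0.13 in replicate 2 (19 pairs of bins each, a description).

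**Figure D1:**
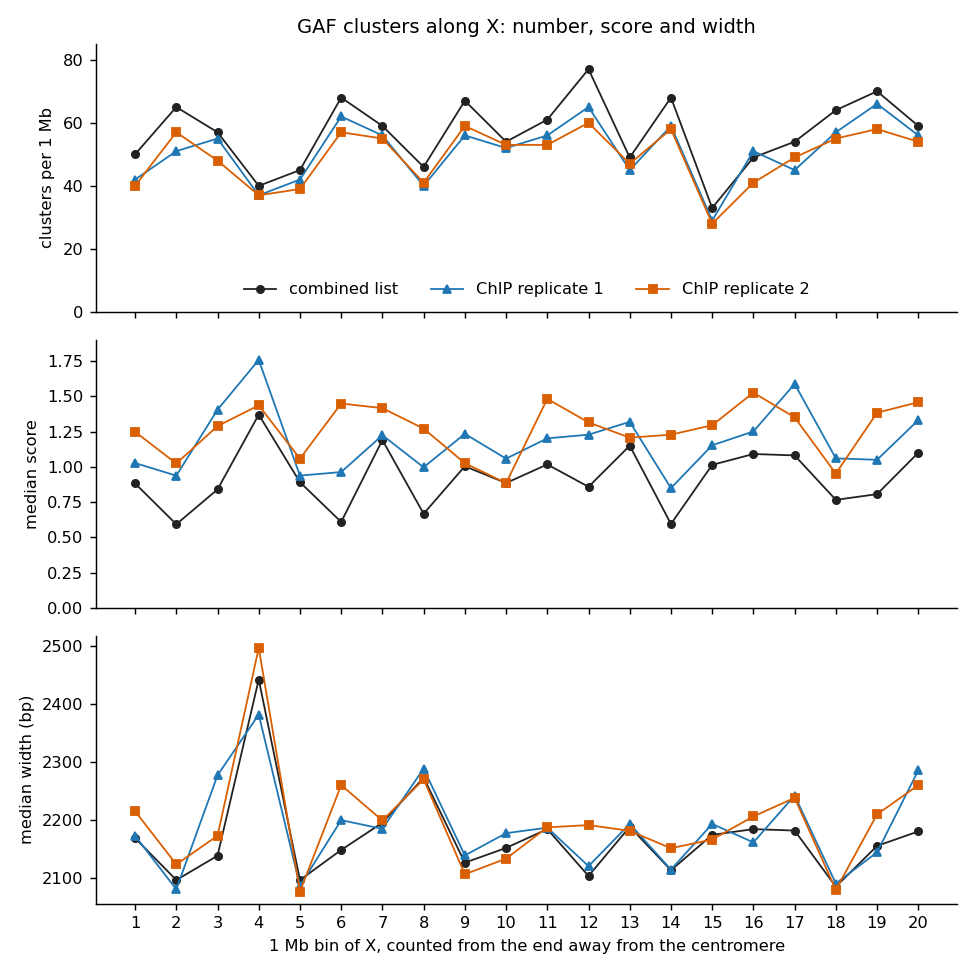
Number, median score and median width of GAF clusters below 5 kb in 20 bins of 1 Mb along X, counted from the end away from the centromere, in the combined list (black circles), ChIP replicate 1 (blue triangles) and ChIP replicate 2 (orange squares); the width axis does not start at 0. Bin 15 (14 to 15 Mb) has the lowest number in every list, at 33, 29 and 28, and bin 4 has the highest median width in every list.

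Over stretches of 5 Mb the differences in density were smaller. The first 5 Mb held 257 combined clusters (51.4 per Mb), and the following stretches held 294, 288 and 296 (58.8, 57.6 and 59.2 per Mb). Replicate 1 had 45.4, 53.2, 50.8 and 55.0 per Mb and replicate 2 had 44.2, 53.0, 49.2 and 51.4. The first stretch was thus the lowest in every list. It also held the most broad clusters, 31 in the combined list, 27 in replicate 1 and 26 in replicate 2. At the very start of X, the first cluster ran from 5149 to 6698 with a combined score of 0.293 and was found in replicate 1 (0.491) but not in replicate 2. A strong cluster followed from 12866 to 15544, at 3.10 in the combined list, 3.27 in replicate 1 and 2.85 in replicate 2.

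Gaps were measured between neighbouring enriched clusters of any width, so that a broad cluster also closes a gap. The 1229 gaps of the combined list had a median of 7101 bp, and the middle part of the distribution ran from 2347 bp (lower quartile) to 16872 bp (upper quartile). Medians were 8041.5 bp in replicate 1 and 8018 bp in replicate 2. Gaps of 50 kb or more numbered 66 in the combined list, 77 in replicate 1 and 81 in replicate 2, and together they made up 24.2%, 29.2% and 32.1% of the 20 Mb. Only 7 gaps of the combined list reached 100 kb, against 8 in replicate 1 and 12 in replicate 2. By position, 21 of the 66 long gaps had their midpoint in the first 5 Mb, 10 in the second stretch of 5 Mb, 22 in the next and 13 in the last. In replicate 1 these numbers were 24, 14, 21 and 18, and in replicate 2 they were 23, 17, 23 and 18.

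**Figure D2:**
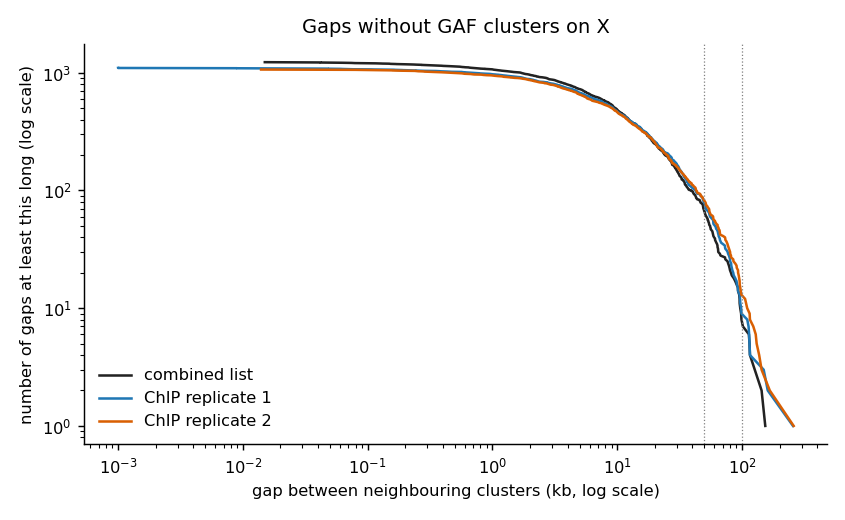
Number of gaps between neighbouring GAF clusters of any width on X up to 20 Mb (vertical axis, log scale) that are at least as long as the length on the horizontal axis (kb, log scale), for the combined list and both ChIP replicates; dotted lines mark 50 and 100 kb. The replicates have 77 and 81 gaps of 50 kb or more and the combined list 66, and the longest gap is 153.5 kb in the combined list and 256.0 and 259.2 kb in the replicates.

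The longest gap ran from 14117349 to 14270816, over 153.5 kb. Neither replicate had a cluster in it. In both replicates it was in fact longer, from 14117333 to 14373367 in replicate 1 (256.0 kb) and from 14117345 to 14376508 in replicate 2 (259.2 kb). What ends the gap in the combined list is a cluster of 1031 bp, from 14270817 to 14271847, with a score of 0.497 and no counterpart in either replicate. It was also the most isolated of the 1135 clusters, with its nearest neighbour 101.6 kb away.

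The same neighbourhood held 3 of the 10 longest gaps, which followed each other from 13979967 to 14373454. In those 393.5 kb the combined list had 6 clusters, or 15.2 per Mb, and each replicate had 5, or 12.7 per Mb. Of the 6, 5 stood together as a compact group from 14095626 to 14117348, with a long gap on each side. Their combined scores were 0.61, 1.80, 3.82, 2.69 and 1.24 from left to right. Replicate 1 gave 0.715, 1.85, 3.86, 2.74 and 1.15 for the same clusters, and replicate 2 gave 0.743, 1.77, 3.80, 2.63 and 1.37. Both replicates thus had strong clusters in this small group, in the middle of an otherwise sparse stretch. A region called depleted, with a score of -0.0145, lay inside the first of the 3 gaps, from 14040238 to 14041844.

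The second longest gap ran from 6274624 to 6418027 over 143.4 kb. It was 149.1 kb long in replicate 1 and 143.4 kb in replicate 2. The following one, from 15058234 to 15184580 over 126.3 kb, was not empty in the replicates. Each had 1 weak cluster inside it, with a score of 0.0913 in replicate 1 and 0.132 in replicate 2, where the combined list instead had a depleted region from 15091966 to 15093851. The remaining gaps held no whole replicate cluster. They ran from 13979967 to 14095625 (115.7 kb), 3450293 to 3565115 (114.8 kb), 18886379 to 18999794 (113.4 kb), 14271848 to 14373454 (101.6 kb), 12833522 to 12932445 (98.9 kb), 4101333 to 4199645 (98.3 kb) and 19859280 to 19956025 (96.7 kb). Clusters next to long gaps were of every strength. The gap starting at 3450293 ended at a broad cluster with a score of 4.03, whereas the one starting at 18886379 began at a cluster with a score of 0.069. With clusters of all 3 lists closing gaps, 64 gaps of 50 kb or more and 6 of 100 kb or more remained.

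Each replicate also had gaps that the combined list closes with weak clusters. From 16112791 to 16225553, replicate 1 had no cluster over 112.8 kb, between the strongest cluster in the set and the one that ranked 11. The combined list had 5 clusters there, with scores of 0.331, 0.295, 0.428, 0.339 and 0.386, of which replicate 2 had 2, at 0.523 and 0.607. From 7624047 to 7784663, replicate 1 was free of clusters over 160.6 kb, and the combined list had 1 with a score of 0.284, matched in replicate 2 by one of 0.435. Replicate 2 had a gap of 137.1 kb from 2685528 to 2822647, in which the combined list had 3 clusters with scores of at most 0.207. These 3 were found in replicate 1 alone, with scores there between 0.366 and 0.418. Only 1 other row of 3 such neighbours occurred, from 5065676 to 5081530, with replicate 1 scores between 0.308 and 0.663, and no longer row did.

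At the other extreme, clusters stood close together. In the combined list 706 of the 1135 clusters (62.2%) had another cluster within 5 kb, in replicate 1 59.6% and in replicate 2 59.7%. Clusters with no neighbour within 20 kb numbered 62, 69 and 77. When clusters less than 5 kb apart were joined into runs, broad ones included, the combined list fell into 725 runs, of which 450 were a lone cluster and 25 held 5 or more. Those 25 runs held 146 clusters. Replicate 1 had 20 such runs with 113 clusters and replicate 2 had 20 with 112.

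The longest run of the combined list ran from 17764084 to 17798719 and held 8 clusters in 34.6 kb, against 7 in replicate 1 and 6 in replicate 2. Close by, the run from 17612238 to 17638075 held 7 clusters in 25.8 kb in each of the 3 lists. Another 7 lay from 12525147 to 12572381 in the combined list and in replicate 1, where replicate 2 had 8, and 7 more from 12625397 to 12660851, with 6 and 7 in the replicates. The run from 2014782 to 2054126 also held 7 clusters, 3 of them broad, and each replicate had 6. These are 4 of the 5 combined runs of 7 clusters, those with the highest summed scores.

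In windows of 100 kb, the median was 5 clusters in every list. The fullest window of the combined list, from 1100001 to 1200000, held 14, but only 8 in replicate 1 and 10 in replicate 2. The next, from 17600001 to 17700000, held 13 and had 12 in each replicate, so its count recurred better. From 11600001 to 11700000 there were 12, 12 and 10, from 11200001 to 11300000 there were 12, 9 and 9, and from 19500001 to 19600000 there were 11, 7 and 11. The last was 1 of 6 windows with 11 combined clusters, and was taken for its higher summed score. Of the 200 windows, 3 held the midpoint of no cluster, of any width, in any list. These were 4100001 to 4200000, 6300001 to 6400000 and 18900001 to 19000000. Edges of clusters centred outside reached into the first and the last, while the window from 6300001 to 6400000 was free of clusters.

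The score of a cluster was hardly related to how near its neighbours were. Spearman's rho between the score and the distance to the nearest cluster was -0.0652 over 1135 clusters in the combined list, -0.0441 over 1022 in replicate 1 and -0.0357 over 989 in replicate 2, as descriptions over clusters that share a library. In replicate 1 the median score was 1.15 for clusters with a neighbour below 1 kb away, 1.27 at 1 to 5 kb, 1.03 at 5 to 20 kb and 1.31 at 20 kb or more. In replicate 2 the medians were 1.27, 1.38, 1.08 and 1.45. Both replicates thus had their lowest median at 5 to 20 kb and their highest among the most isolated clusters. In the combined list the lowest was also at 5 to 20 kb (0.704), but the highest was at 1 to 5 kb (1.06). An example of a strong lone cluster is the one from 14642085 to 14644899, whose nearest neighbour was 60769 bp away. It scored 2.52 in the combined list, 2.50 in replicate 1 and 2.58 in replicate 2.

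Of the 12 strongest clusters, 6 lay between 15190436 and 18266815. Since the combined score ranked them, their values are a description. The highest ran from 16109639 to 16112803 and scored 5.00 in the combined list, 4.89 in replicate 1 and 5.12 in replicate 2, or 5.00 ± 0.165 over the replicates (SD, n = 2). The cluster from 7192726 to 7197189 scored 4.81, 4.81 and 4.82 in the same order of lists. Both replicates put these 2 in the same order, although in replicate 1 their scores were closer together than the usual spread of a cluster between replicates, 0.211 score units. From 2210366 to 2213405 the scores were 4.53, 4.57 and 4.61, and from 7823282 to 7826354 they were 4.49, 4.52 and 4.47.

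The next clusters were closer in score. The one from 15190436 to 15194195 scored 4.37, 4.39 and 4.46 and ended only 50 bp before another cluster. Scores were 4.37, 4.47 and 4.29 from 10676677 to 10681280, and 4.21, 4.46 and 4.22 from 19575162 to 19578791. The cluster from 17661172 to 17663758 was the narrowest of the 12 strongest, at 2587 bp, and scored 4.21, 4.22 and 4.20. The last 4 ran from 18264064 to 18266815 (combined score 4.18), 9585756 to 9589248 (4.17), 16225561 to 16228736 (4.16) and 17543968 to 17547498 (4.14). Replicate 1 gave 4.28, 4.22, 4.23 and 4.27 for these last 4 clusters and replicate 2 gave 4.13, 4.14, 4.10 and 4.04. None of the 12 lay in the first 2 Mb, or between 10681280 and 15190436, although that stretch contains the fullest bin.

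Along X, the score varied less regularly than the number of clusters. Bin medians ran from 0.593 to 1.37 in the combined list, from 0.849 to 1.76 in replicate 1 and from 0.884 to 1.53 in replicate 2. Spearman's rho between the replicates' bin medians was 0.403 over 20 bins. The bin from 3000001 to 4000000, one of the emptiest, had the highest median score in the combined list (1.37) and in replicate 1 (1.76). In replicate 2 its median was 1.44, below the 1.53 of the bin from 15000001 to 16000000. The largest difference between replicates was at 5 to 6 Mb, with 0.963 in replicate 1 and 1.45 in replicate 2. In the combined list fuller bins had lower medians (rho of -0.506), but the replicates hardly showed this, at -0.152 and -0.102 (20 bins each, descriptions).

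Width followed the score. Over clusters, Spearman's rho between score and width was 0.804 in the combined list, 0.829 in replicate 1 and 0.819 in replicate 2, all below the width limit. Bin medians of the width recurred between replicates with a rho of 0.737 over 20 bins. The bin from 3000001 to 4000000 had the widest clusters in every list, with medians of 2442.5 bp in the combined list, 2382 bp in replicate 1 and 2497 bp in replicate 2. The narrowest bin medians were 2084.5 bp at 17 to 18 Mb in the combined list, 2080 bp at 1 to 2 Mb in replicate 1 and 2076 bp at 4 to 5 Mb in replicate 2.

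By median score, clusters supported by both replicates were the strongest, but those in neither scored above those in 1 alone. The combined list comes from the same replicates, so its score and this support are not independent. Clusters of both replicates overlapped 879 of the 1135 (77.4%, exact Clopper-Pearson 95% interval 74.9 to 79.8%), against 79.5% of all 6474 combined clusters. Replicate 1 alone had a cluster at 92 (8.11%) and replicate 2 alone at 68 (5.99%). At 96 (8.46%, interval 6.91 to 10.2%) neither did, against 9.21% of all combined clusters. Both shares were near those of the whole list, which has no width limit and includes X. The intervals cover counting error only and treat clusters as independent. On autosomal arms with the same width limit and without centromere ends, both replicates overlapped 78.9% on 2L, 80.5% on 2R, 81.3% on 3R and 82.7% on 3L. X thus had the lowest such share, but the 78.9% of 2L lay within the interval given for X. The share in neither was 10.1% on 2L, above the 8.46% on X, and 7.17% on 2R, 7.51% on 3L and 7.57% on 3R.

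The median of the 879 shared clusters was 1.29 for the score and 2298 bp for the width. Those in 1 replicate alone were weak, with medians of 0.199 for replicate 1 and 0.211 for replicate 2 and no score above 0.765. Clusters in neither replicate scored somewhat higher, at a median of 0.367, and were narrow, with a median width of 1190 bp. Of these 96, 63 were below 1301 bp, the smallest width in either replicate list anywhere in the genome. By bin, the share found in both replicates ran from 70.0% at 0 to 1 Mb to 85.2% at 9 to 10 Mb. The fullest bin, at 11 to 12 Mb, had the largest number found in neither, 10 of 77.

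**Figure D3:**
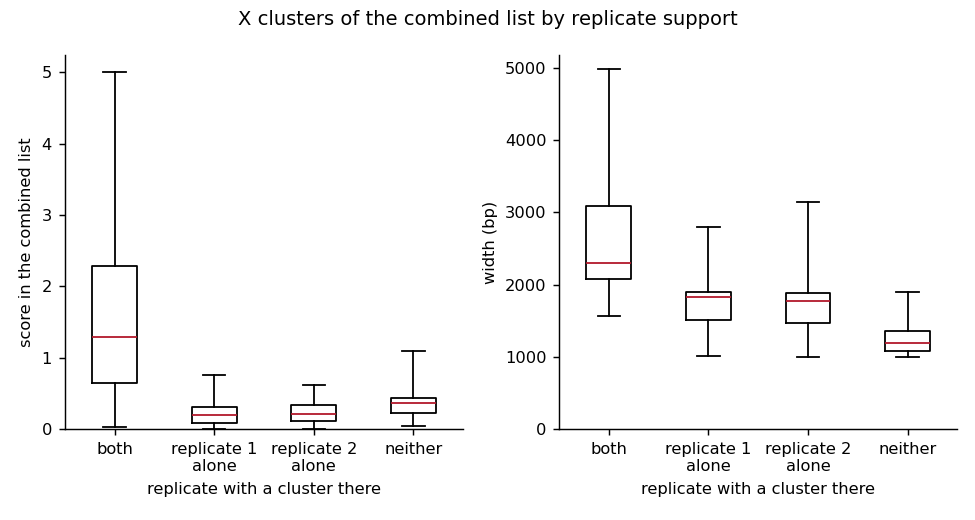
Combined score (left) and width in bp (right) of the 1135 X clusters by whether both replicates, replicate 1 alone, replicate 2 alone or neither had a cluster there; boxes span the quartiles, red lines are medians and whiskers reach the lowest and highest values. Clusters found in both have a median score of 1.29, against 0.199, 0.211 and 0.367 for the others.

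Seen from the replicates, 979 of the 1022 replicate 1 clusters (95.8%) and 953 of the 989 replicate 2 clusters (96.4%) overlapped a cluster of the set. A further 30 and 28 lay only on a combined cluster of 5000 bp or more, and 13 and 8 on no combined cluster. Those 13 and 8 had median scores of 0.203 and 0.126, and 9 and 7 of them lay on a region that the combined list calls depleted. Replicate clusters with no counterpart in the other replicate numbered 103 in replicate 1 and 72 in replicate 2, with median scores of 0.349 and 0.443, against 1.31 and 1.36 for those with one. Of the X clusters in the combined list, 959 lay on exactly 1 cluster of replicate 1 and 939 on exactly 1 of replicate 2, while 12 and 8 lay on 2.

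Where a cluster matched exactly 1 cluster in each replicate, its scores could be compared directly. This held for 860 of the 1135 clusters and leaves out every cluster that either replicate lacked. Their scores in both replicates gave a Spearman's rho of 0.943 and a Pearson's r of 0.961, as descriptions over clusters that share libraries. The median difference of replicate 1 minus replicate 2 was -0.011 score units, with an SD of the differences of 0.299, and replicate 2 was higher at 442 (51.4%). The spread of 1 cluster between the replicates was 0.211 score units (within-cluster SD, n = 2). Bin medians of the difference lay between -0.0711 and 0.0411. With the 860 divided into 4 equal groups by combined score, the spread was 0.157 in the lowest group, 0.222 and 0.27 in the middle ones and 0.178 in the highest. Spearman's rho between the replicates within these groups was 0.363, 0.233, 0.441 and 0.882, from the lowest group to the highest. The groups were cut by the combined score, which comes from the same replicates, and each spans a narrower range of scores than the whole. That lowers rho within a group, so the lower values do not show poorer agreement below the highest group.

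A few clusters differed much more. The largest difference was at 10846798 to 10849093, which scored 2.41 in replicate 1 and 0.755 in replicate 2. At 9870448 to 9872576 the scores were 1.95 and 0.342, and at 11645963 to 11649240 they were 2.65 and 1.31. All of these 3 were higher in replicate 1. Their combined scores, 1.82, 1.31 and 2.09, lay between those of the replicates.

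**Figure D4:**
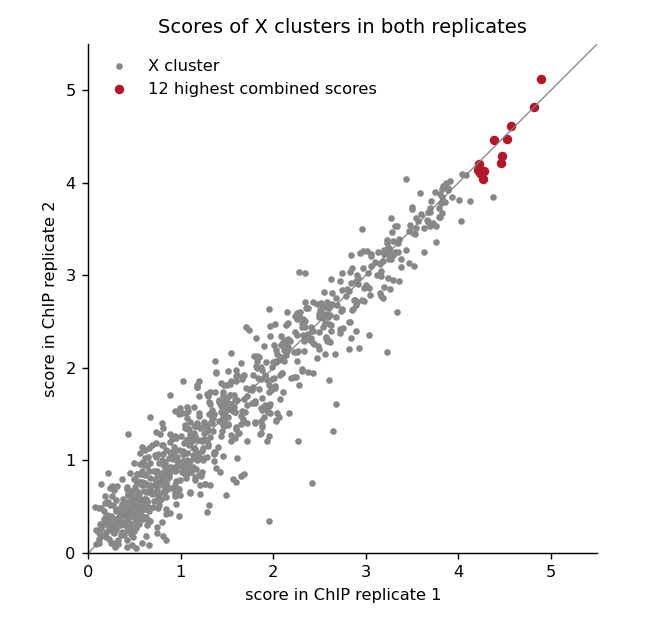
Score in ChIP replicate 1 (horizontal) against ChIP replicate 2 (vertical) for the 860 X clusters with exactly 1 matching cluster in each replicate; red points are the 12 clusters with the highest combined score and the grey line marks equal scores. Points follow the line with a within-cluster SD of 0.211, and a few lie well below it, such as the cluster at 2.41 in replicate 1 and 0.755 in replicate 2.

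Regions called depleted were few and shallow up to 20 Mb. The combined list had 22, with scores from -0.163 to -0.00257 and widths from 1607 to 1934 bp, replicate 1 had 0 and replicate 2 had 1. A replicate called enrichment at 14 of the 22, of which 7 were in replicate 1 alone, 5 in replicate 2 alone and 2 in both. The enriched scores there reached at most 0.258 in replicate 1 and 0.277 in replicate 2.

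X was set beside the 4 large autosomal arms, with the same width limit and with the 2.42 Mb nearest the centromere removed from each arm. Density on X was 56.8 per Mb in the combined list, against 55.1 on 2R, 49.4 on 3L, 47.7 on 3R and 42.4 on 2L. Over the replicates it was 50.3 ± 1.17 on X, 50.9 ± 0.567 on 2R, 45.1 ± 0.767 on 3L, 43.4 ± 0.333 on 3R and 37.4 ± 0.79 on 2L (SD, n = 2). X and 2R thus differed by less than the spread of X between replicates. X was the denser of them in replicate 1 (51.1 against 50.5) and the less dense in replicate 2 (49.5 against 51.3). X lay above the other 3 arms by more than the spread between replicates. X had 1.17 times the density of the 4 arms together in the combined list and in replicate 1, and 1.11 times in replicate 2. No test was made of these differences, since arms, bins and clusters are not replicates of a condition.

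Spacing was close on X, and scores were somewhat lower. The median gap was 8030 ± 16.6 bp on X (SD, n = 2), 8557 ± 336 bp on 2R, 9351 ± 351 bp on 3L, 10099 ± 140 bp on 3R and 11908 ± 152 bp on 2L. A neighbour within 5 kb was present for 59.6% ± 0.0475 of X clusters, against 57.7% ± 0.917 on 2R and 47.5% ± 0.177 on 2L. Median scores were 1.19 ± 0.0584 on X, 1.26 ± 0.038 on 2R, 1.30 ± 0.0745 on 3R, 1.32 ± 0.012 on 3L and 1.34 ± 0.0317 on 2L. X had the lowest median score of the 5 arms in the combined list and in each replicate. The difference of X minus 2R was -0.0843 score units in replicate 1 and -0.0556 in replicate 2, about as large as the spread between replicates. Broad clusters made up 7.72% of clusters on X in the combined list, against 5.54% to 7.03% on the autosomal arms. Gaps of 50 kb or more occurred 39.5 ± 1.41 times per 10 Mb on X (SD, n = 2), 35.0 ± 0.378 on 2R, 38.4 ± 1.92 on 3L, 44.0 ± 0.555 on 3R and 46.9 ± 3.09 on 2L. X thus lay above 2R and below 3R and 2L by more than the spread between replicates. Gaps of 100 kb or more were fewest on X in each list, at 7 in the combined list, 8 in replicate 1 and 12 in replicate 2, against 11 to 21, 13 to 23 and 14 to 24 on the autosomal arms. Per 10 Mb they numbered 5.0 ± 1.41 on X over the replicates, 7.21 ± 0.378 on 2R, 7.46 ± 1.11 on 3R, 9.04 on 3L in both replicates and 11.4 ± 0.343 on 2L (SD, n = 2).

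**Figure D5:**
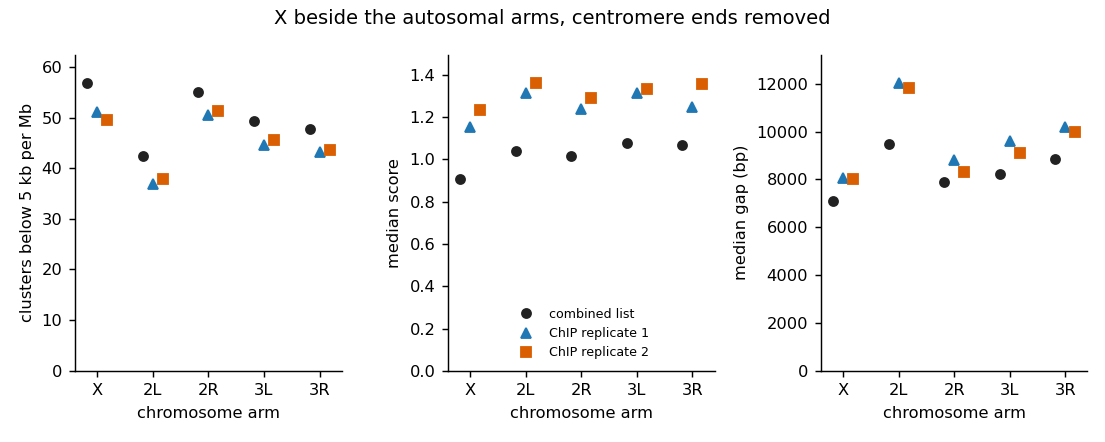
Clusters below 5 kb per Mb (left), their median score (middle) and the median gap in bp between clusters of any width (right) on X and the 4 large autosomal arms without the 2.42 Mb nearest the centromere, in the combined list and both ChIP replicates. X and 2R have the highest densities and shortest gaps, and X has the lowest median score in each list.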

How the data were processed

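Region lists of 2 GAF ChIP replicates and a combined list were read. Each deposited score is signed, above 0 in enriched and below 0 in depleted regions, with no stated scale. The genome build is FlyBase release 5, per the file headers. The submitters' processing notes name Bowtie 0.12.7 as a tool. Not given in the sources used here are the region caller, its thresholds, how the inputs entered the scores and how replicates were combined. No read counts are given, so depth is unknown.

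Clusters were assigned to bins by midpoint. Overlap meant at least 1 shared bp. Replicate values are given as mean ± SD. Shares have exact binomial intervals at 95%. There is 1 group without a contrast, so no p-value was computed. Named were the 12 highest combined scores, the 10 longest gaps, the 4 fullest and 4 emptiest bins, the 5 fullest windows, the longest runs, and clusters at the limits; matched clusters with the largest differences and gaps of single replicates were picked after their values were seen. Members and lists were chosen with earlier results of these data known. The gene table at hand is of release 6, so no gene, motif or sequence was assigned. Routines (Python 3.11.15, NumPy 2.4.6, pandas 2.3.3, SciPy 1.17.1) were tested on simulated data. Alternatives covered the list used, replicate support, a stricter score, the width and midpoint limits, bin size, trimming and overlap.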

Additional observations from a re-analysis of the deposited data

How the results depend on the processing

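No paired analysis was possible because the series has region lists for 1 group, the ChIP, and none for the inputs, which share its replicate numbers but are paired with them crosswise in the labels. The replicate lists taken alone gave 49.5 to 51.1 clusters per Mb, median scores of 1.15 to 1.24, median widths of 2167 to 2181 bp, median gaps of 8018 to 8041.5 bp, fullest-to-emptiest bin ratios of 2.14 to 2.28 (2.33 in the combined list), X-to-autosome density ratios of 1.11 to 1.17 and 59.6% to 59.7% of clusters within 5 kb of another. With only clusters that both replicates overlap, these were 44.0 per Mb, 1.29, 2298 bp, 8923 bp, a bin ratio of 2.11 and an arm ratio of 1.12. With a stricter score limit, the median over the list, 512 clusters were left at 25.6 per Mb, with a median score of 2.05, a median width of 2670.5 bp, a median gap of 15070 bp, 113 gaps of 50 kb or more, a bin ratio of 2.06 and an arm ratio of 1.07, and both replicates overlapped 99.8% of them. Without the width limit there were 61.5 per Mb, with a median score of 1.02 and width of 2193 bp. A midpoint limit of 18 Mb gave a median gap of 7187 bp. The whole of X gave 54.6 per Mb, a median gap of 7239 bp and a bin ratio of 2.75. Its arm ratio was 1.13, against autosomal arms still without their centromere ends. Bins of 0.5 and 2 Mb gave ratios of 3.42 and 1.68. Distances of 2 and 10 kb gave 36.8% and 81.8% of clusters with a neighbour. Of the other 29 values, 13 are counts within 1.5 times the main one, which is wider than the spread between replicates: 879 to 1230 clusters against 1135, and 61 to 86 gaps of 50 kb or more against 66. The other 16 moved by less than the spread between replicates, or for the shared fraction stayed within its interval and for the correlation stayed at 0.94. Some of the 29 say little: gaps always used clusters of any width, so dropping the width limit could not change the median gap or the 66 long gaps. Counts under other midpoint limits cover a different length of X. X stayed denser than the autosomal arms together under all alternatives run, but none of them set the whole of X against whole autosomal arms. One, at a ratio of 1.19, set X without its centromere end against autosomal arms that kept theirs. Over the replicates, 2R alone was as dense as X, at 50.9 per Mb against 50.3. Read depth is unknown, so what it limits could not be measured.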
